A study of Homo sapiens with 8 samples.

Results

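The fibrillar collagen genes COL1A1, COL1A2, COL3A1, COL5A1, COL5A2, COL5A3 and COL11A1 were chosen by name. All 7 were among the 25369 genes of the count and FPKM tables. FPKM was used for levels between genes. It scales the reads of a gene by its length and, in these data, by a median-of-ratios size factor of the library. Of the 7 genes, 6 passed the filter on low counts and were tested together with all 14570 genes that passed, while COL11A1 did not pass.

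RNA-seq was performed on LX-2 cells, an immortalized human hepatic stellate cell line of wild-type genotype. The cells were moved from plastic onto fibronectin-coated polyacrylamide hydrogels with a stiffness of 2 kPa (soft matrix) or 40 kPa (stiff matrix) and harvested at day 2 or at day 4. Each of the 4 conditions had 2 libraries, 8 in all. The model is limited to a single cell line on coated gels, and days 2 and 4 differ in time since reseeding as well as in time on the matrix.

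Fibrillar collagens are made as procollagen chains that fold into triple helices in the endoplasmic reticulum, lose their propeptides outside the cell and are crosslinked into fibrils. Types I and III form the bulk of scar fibrils, and types V and XI help to start fibrils and to limit their width. Activated hepatic stellate cells are known as the main source of fibrillar collagen in the fibrotic liver. The comparisons addressed whether matrix stiffness or time in culture went with different levels of these mRNAs.

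Total counts per library lay between 19955975 and 27263935. Replicate 2 of the stiff matrix at day 4 stood apart from replicate 1, as the chi-square between them, divided by its degrees of freedom, was 119.8 against 3.53 to 20.1 in the other conditions. In this library the 7 genes took 0.0693% of all counts, compared with 0.111% to 0.167% in the other libraries. Of 12 markers of stellate cells and myofibroblasts, 7 had a mean of at least 1 FPKM, including VIM, TAGLN, TIMP1 and ACTA2, and the list summed to between 1510 and 4102 FPKM (1510 to 1651 on the soft matrix at day 2, 1833 to 1966 on the stiff at day 2, 2600 to 3034 on the soft at day 4 and 2613 to 4102 on the stiff at day 4). DES, PDGFRA, LRAT and HGF of that list were below 0.1 FPKM. The 7 hepatocyte and the 7 endothelial markers summed to at most 2.98 and 1.03 FPKM. The 7 macrophage and leukocyte markers summed to 48.7 to 66.7 FPKM, nearly all from CD68, while CD163, MARCO and TYROBP were below 0.1 FPKM. The 7 epithelial markers summed to 290 to 515 FPKM, mostly from KRT8 and KRT18, with EPCAM and CDH1 below 0.1 FPKM.

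RefSeq promoter sequence on GRCh38.p14 was at hand for only 3 of the 7 genes, and all 3 are shown here. Each sequence covers the 250 bases before the annotated start, in the direction of the gene. Capitals mark matches, on either strand, to the Sp1 motif GGGCGG or to the CCAAT box (CCAAT).
COL5A1: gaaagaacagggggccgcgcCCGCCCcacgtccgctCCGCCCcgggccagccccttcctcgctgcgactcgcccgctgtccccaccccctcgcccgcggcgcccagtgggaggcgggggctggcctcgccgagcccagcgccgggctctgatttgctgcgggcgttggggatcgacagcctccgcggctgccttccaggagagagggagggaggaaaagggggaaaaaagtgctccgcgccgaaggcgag
COL5A3: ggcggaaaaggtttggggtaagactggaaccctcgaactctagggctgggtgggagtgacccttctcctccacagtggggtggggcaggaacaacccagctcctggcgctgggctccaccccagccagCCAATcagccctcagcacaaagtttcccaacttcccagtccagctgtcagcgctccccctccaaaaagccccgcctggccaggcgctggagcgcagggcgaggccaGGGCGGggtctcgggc
COL11A1: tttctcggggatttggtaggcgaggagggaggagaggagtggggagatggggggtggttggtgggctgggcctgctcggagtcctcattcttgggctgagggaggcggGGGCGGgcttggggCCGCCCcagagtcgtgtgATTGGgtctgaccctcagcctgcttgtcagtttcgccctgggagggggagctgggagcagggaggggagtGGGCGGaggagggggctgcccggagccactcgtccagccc
The COL5A1 window, chr9:134641553-134641802 on the plus strand, was 74% G or C with 29 CpG dinucleotides and 2 Sp1 matches, beginning 230 and 214 bases before the start. The COL5A3 window, chr19:10010505-10010754 on the minus strand, was 66% G or C with 10 CpG, an Sp1 match at 16 bases and a CCAAT box at 122 bases before the start. The COL11A1 window, chr1:103108523-103108772 on the minus strand, was 68.8% G or C with 11 CpG, 3 Sp1 matches at 142, 128 and 40 bases, and a CCAAT box at 110 bases. No match overlapped another. The AP-1 motif TGANTCA and the TEAD motif GGAATG had 0 matches in all 3 windows. Among 35116 promoter windows of the same length, 42.6% held GGGCGG, 32.0% CCAAT, 11.9% GGAATG and 6.57% TGANTCA, with medians of 58% G or C and 11 CpG. These letters describe the windows and say nothing of factor binding in these cells.

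COL1A1, the alpha 1 chain of type I collagen, occupies 48261462 to 48278993 of chromosome 17 (GRCh37, the build of all gene positions given here), minus strand. It had the highest level of the 7 genes in every library. On the soft matrix at day 2 the libraries had 172 and 149 FPKM, and on the stiff matrix at day 2 they had 142 and 153 FPKM. At day 4 they had 103 and 125 FPKM on the soft matrix and 113 and 83.9 FPKM on the stiff matrix. The libraries of the matrices overlapped at both days, and every day 4 library lay below every day 2 library. By mean FPKM, COL1A1 stood above 97.9% of all genes in the table. In bulk RNA, fewer cells of a type and less RNA per cell cannot be told apart, which holds for every level given here. COL1A1, COL5A1 and COL5A3 each have an exon that overlaps one of a gene on the opposite strand, and reads there cannot be assigned without knowing whether strand was used in counting.

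COL1A2, which encodes the alpha 2 chain that joins a pair of COL1A1 chains in the usual type I triple helix, lies on chromosome 7 from 94024207 to 94060539 on the plus strand. Its level was low in all libraries, with 37 to 90 counts each. The FPKM were 0.480 and 0.499 on the soft and 0.426 and 0.418 on the stiff matrix at day 2, and 0.686 and 0.734 on the soft and 0.487 and 0.389 on the stiff matrix at day 4. The soft libraries of COL1A2 lay above its stiff libraries at each day. Within one library, the FPKM of COL1A1 was 328 ± 41.4 times that of COL1A2 on the soft and 349 ± 22.3 times on the stiff matrix at day 2, and 160 ± 13.8 and 224 ± 11.1 times at day 4 (mean ± SD, n = 2 each). 

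COL3A1, the chain of type III collagen, which is a homotrimer that often shares fibrils with type I, lies on chromosome 2 from 189839099 to 189877472 on the plus strand. It had 3.08 and 2.81 FPKM on the soft matrix at day 2 and 0.962 and 1.87 FPKM on the stiff. At day 4 it had 5.04 and 7.30 FPKM on the soft matrix and 2.7 and 1.45 FPKM on the stiff. All 4 stiff libraries lay below all 4 soft libraries, with 126 to 304 counts against 429 to 908. The stiff replicates differed from each other by up to 1.94-fold.

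COL5A1 and COL5A2 encode the 2 chains of the common form of type V collagen. COL5A1 lies on chromosome 9 from 137533649 to 137736689 on the plus strand, and COL5A2 on chromosome 2 from 189896624 to 190090038 on the minus strand, 19151 bases from COL3A1. COL5A1 had 45.1 and 42.5 FPKM on the soft and 41 and 43.4 FPKM on the stiff matrix at day 2, and 19.8 and 23.8 FPKM on the soft and 19.5 and 12.2 FPKM on the stiff matrix at day 4. All 4 day 4 libraries were thus below all 4 day 2 libraries. COL5A2 had 25.5 and 25.1 FPKM on the soft and 16.9 and 18.7 FPKM on the stiff matrix at day 2, and 41.6 and 51.9 FPKM on the soft and 44.7 and 25.3 FPKM on the stiff matrix at day 4. On each matrix its day 4 libraries lay above its day 2 libraries, and replicate 2 of the stiff matrix at day 4 was close to the soft libraries of day 2.

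COL5A3, a rarer type V chain, and COL11A1, a type XI chain typical of cartilage, were near the limit of detection. COL5A3 lies on chromosome 19 from 10070237 to 10121180 and COL11A1 on chromosome 1 from 103342023 to 103574428, both on the minus strand. COL5A3 had 5 and 10 counts on the soft and 5 and 5 counts on the stiff matrix at day 2, and 14 and 10 on the soft and 5 and 3 on the stiff matrix at day 4. These are 0.0276 to 0.105 FPKM, and 14 counts have an exact 95% Poisson interval of 7.65 to 23.5, which covers counting error only. COL11A1 had 3 and 5 counts on the soft and 2 and 0 counts on the stiff matrix at day 2, and 9 and 5 on the soft and 4 and 1 on the stiff matrix at day 4. By the same interval, 0 counts allow up to 3.69 and 9 counts span 4.12 to 17.1, so that the lowest and the highest library of COL11A1 were apart while the intervals of most libraries overlapped.

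**Figure D1:**
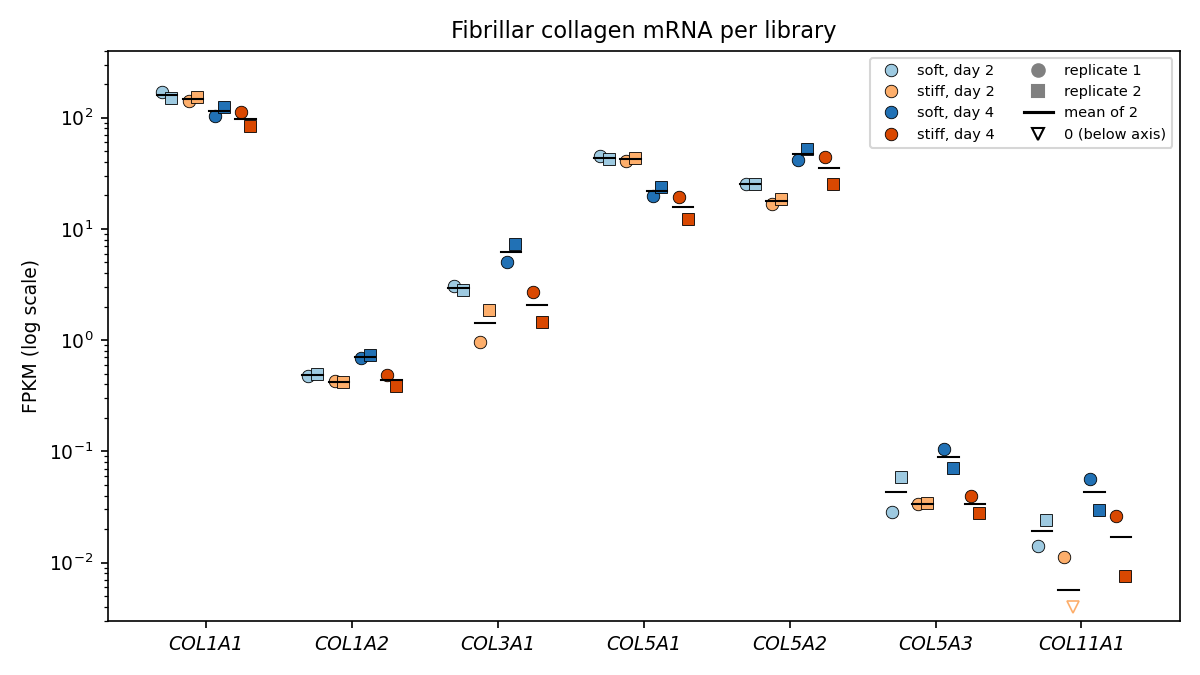
FPKM (log axis) of the 7 fibrillar collagen genes in each of the 8 libraries, with circles for replicate 1, squares for replicate 2 and a bar at the mean of the 2. COL1A1 lies between 83.9 and 172 FPKM, COL1A2 between 0.389 and 0.734 FPKM, and the open triangle marks the library of COL11A1 with 0 counts.

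At day 2 the order of mean FPKM was COL1A1, COL5A1, COL5A2, COL3A1, COL1A2, COL5A3 and COL11A1 on both matrices. At day 4 COL5A2 stood above COL5A1 on both matrices, and the rest of the order was the same. Within a condition, no gene's libraries overlapped those of its neighbor in this order. The libraries of neighbors come from the same cultures, and COL5A3 and COL11A1 were separated by a few counts only.

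COL1A1, COL5A1 and COL5A2 made up 96.1% to 99.3% of the summed FPKM of the 7 genes in each library. COL1A1 took 59.9% to 70.5%. The share of COL5A1 was 18.8 ± 0.664% on the soft and 20.2 ± 0.281% on the stiff matrix at day 2, and 11.5 ± 0.157% and 10.3 ± 0.667% at day 4 (mean ± SD, n = 2 each). The share of COL5A2 was 10.9 ± 0.740% and 8.49 ± 0.165% at day 2, and 24.6 ± 0.314% and 22.7 ± 3.03% at day 4. COL3A1 took 1.26 ± 0.0188% on the soft and 0.670 ± 0.272% on the stiff matrix at day 2, and 3.23 ± 0.384% and 1.34 ± 0.228% at day 4. The summed FPKM was 233 ± 18.1 and 209 ± 11.1 at day 2 and 190 ± 26.9 and 152 ± 40.2 at day 4, on the soft and the stiff matrix in turn.

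**Figure D2:**
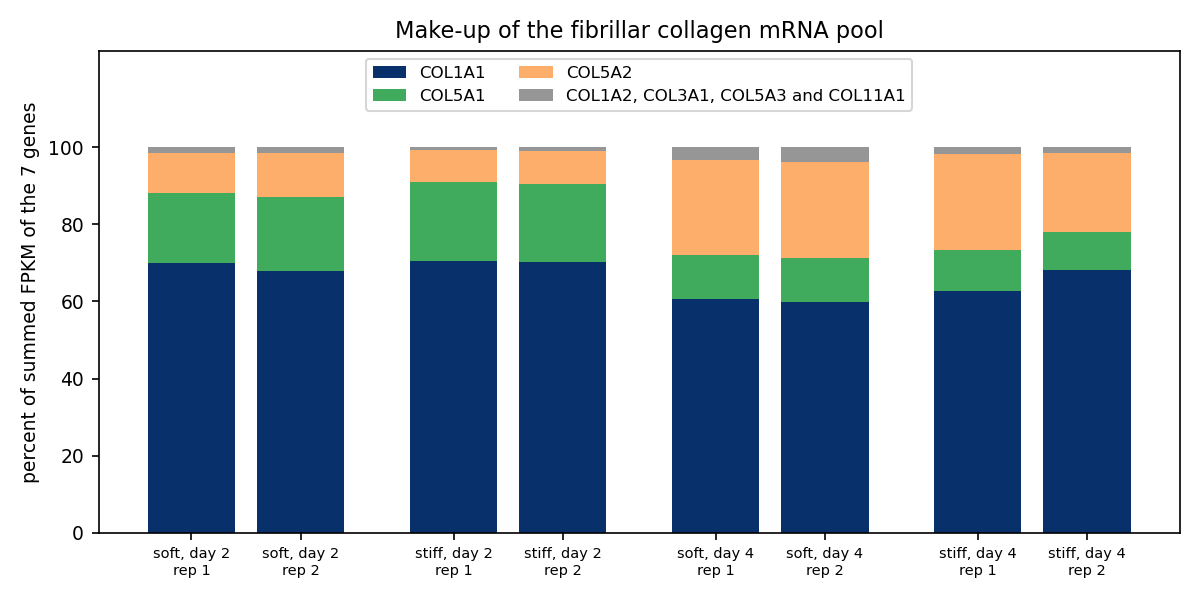
Percent of the summed FPKM of the 7 genes taken by each gene, with a bar per library. COL5A1 (green) goes from 18.4% to 20.4% at day 2 to 9.88% to 11.6% at day 4, and COL5A2 (orange) from 8.38% to 11.4% to 20.5% to 24.9%.

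Stiff and soft matrices were compared at each day with the quasi-likelihood test of edgeR, adjusted by Benjamini-Hochberg over all 14570 genes. At day 2, 0 of the 6 tested collagen genes passed an adjusted p of 0.05, as did 0% of all tested genes. At day 4, 0 of the 6 passed, against 0.247% of all tested genes. All 6 log2 fold changes were below 0 at both days, as were 48.3% of all tested genes at day 2 and 46.6% at day 4. The median over the 6 genes was -0.28 at day 2 and -0.58 at day 4, beside 0.01 and 0.02 over all tested genes. At an unadjusted p of 0.05, 1 of the 6 passed at day 2 (2.82% of all tested genes) and 3 at day 4 (6.93%). DESeq2 called 0 of the 6 at day 2 and 1, COL3A1, at day 4.

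COL3A1 had the greatest difference of the 6 in size at both days. Its CPM, counts scaled to library depth with TMM factors, averaged 16.2 ± 1.06 in soft and 7.78 ± 3.52 in stiff libraries at day 2 (SD, n = 2 each), with a log2 fold change of -1.06 (SE 0.378). The unadjusted p was 0.0239 and the adjusted p was 1.0 by edgeR. At day 4 the averages were 34.4 ± 9.25 and 11.5 ± 4.85 CPM, a log2 fold change of -1.58 (SE 0.377, edgeR adjusted p = 0.250). The DESeq2 estimate was -1.57 (adjusted p = 0.0070). Without replicate 1 of the stiff matrix at day 4, edgeR's log2 fold change was -2.08 (adjusted p = 7.6e-05), and without replicate 2 it was -1.19 (adjusted p = 0.0115). At day 2, the log2 fold change was -0.66 without replicate 1 and -1.61 without replicate 2 of the stiff matrix, and leaving out either stiff library of day 4, which is in neither group compared but enters the same fit, gave adjusted p-values of 0.0158 and 0.0176.

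Averaged over both days, 0 of the 6 genes passed the adjusted p of 0.05, against 0.426% of all tested genes, and 3 of 6 passed an unadjusted p of 0.05, against 7.7%. All 6 values were below 0, as were 45.3% of all tested genes. COL3A1 had a log2 fold change of -1.32 (SE 0.267, edgeR adjusted p = 0.131), which is 2.49-fold lower on the stiff matrix. DESeq2 gave an adjusted p of 0.000264 for it. Its 4 stiff libraries did not overlap its 4 soft ones in CPM, as held in the lower direction for 1.82% of all tested genes. COL1A2 had a log2 fold change of -0.46 (edgeR adjusted p = 0.446) and COL5A2 one of -0.47 (edgeR adjusted p = 0.542). Without replicate 1 of the stiff matrix at day 4, the median over the 6 genes was -0.62, beside -0.0066 over all tested genes. Without replicate 2 it was -0.34, beside -0.0028.

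The other genes were closer on the matrices. COL1A2 averaged 3.90 ± 0.230 CPM in soft and 2.39 ± 0.368 CPM in stiff libraries at day 4 (SD, n = 2 each), with a log2 fold change of -0.70 (SE 0.220, edgeR adjusted p = 0.461), and -0.21 at day 2. COL5A2 had -0.51 at day 2 and -0.43 at day 4, and COL5A1 had -0.05 and -0.47. COL1A1 had -0.12 at day 2, with a 95% interval from -0.56 to 0.31, and -0.22 at day 4, with an interval from -0.66 to 0.21. COL5A3 had -0.34 and -1.36, on 3 to 14 counts a library, and its sign at day 2 turned (0.25) without replicate 2 of the soft matrix at day 2. At day 2, 3 of the 6 genes did not overlap between matrices (COL1A2, COL3A1 and COL5A2), against 22.4% of all tested genes that lay lower without overlap, and at day 4, 4 did not (COL1A2, COL3A1, COL5A1 and COL5A3), against 14%.

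The size of the differences at day 4 moved with the stiff pair of that day. In that pair all 7 genes had higher FPKM in replicate 1, as did 50.3% of all tested genes in CPM, and the median distance between the replicates was 0.54 on the log2 CPM scale over the 6 genes and 0.47 over all tested genes. Without replicate 1 of this pair, the median log2 fold change over the 6 genes at day 4 was -0.87, beside -0.02 over all tested genes. Without replicate 2 the median was -0.35, beside -0.0044. All 6 genes were below 0 at day 4 in each of these fits, as were 51.1% and 50.6% of all tested genes. At day 2 the medians over the 6 genes were -0.28 and -0.29 in the same fits. An edgeR fit of the day 2 libraries alone called COL3A1 (adjusted p = 8.7e-06) and COL5A2 (adjusted p = 3.32e-05), lower on the stiff matrix. That fit called more genes in general, with 16 of the 90 tested genes of the pathway lists below, against 0 in the fit of all libraries. The share of all tested genes it called is not given here.

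The change of the stiffness effect from day 2 to day 4 was tested as an interaction. Of the 6 genes 0 passed, as did 0% of all tested genes, and 0 of the 6 passed an unadjusted p of 0.05, against 1.95%. DESeq2 called 0 of the 6 as well. Without replicate 1 of the stiff matrix at day 4, the change was -1.02 for COL3A1 and -0.77 for COL5A1. The values with all libraries were -0.52 (SE 0.528) and -0.41 (SE 0.309).

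**Figure D3:**
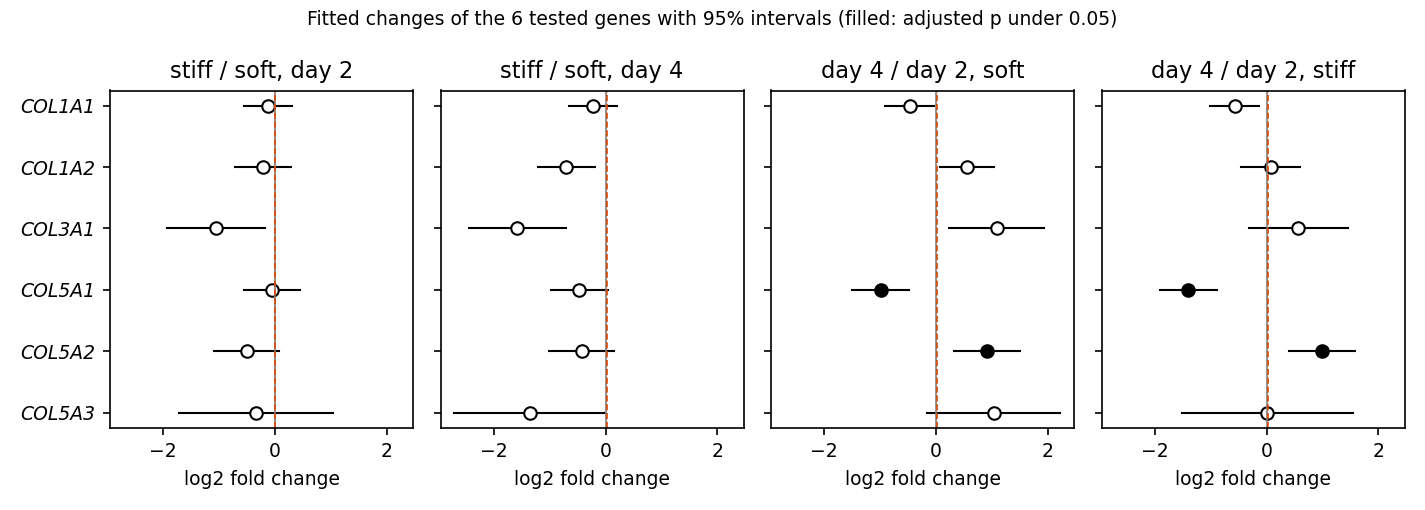
Log2 fold changes (x axis) with 95% intervals of the 6 tested genes in 4 comparisons, where filled points passed an adjusted p of 0.05 by edgeR and the dashed line is the median of all tested genes. All points of the stiff against soft panels lie left of 0, with COL3A1 at -1.06 and -1.58, and COL5A1 and COL5A2 are filled on opposite sides in the panels of day 4 against day 2.

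Time in culture was compared on each matrix. The 2 chains of type V collagen moved in opposite directions on both. COL5A1 fell from 373 ± 16.8 to 188 ± 26.1 CPM on the soft matrix (SD, n = 2), a log2 fold change of -0.99 (SE 0.220, edgeR adjusted p = 0.0157). On the stiff matrix it fell from 359 ± 13.4 to 136 ± 43.9 CPM, a log2 fold change of -1.40 (SE 0.223, edgeR adjusted p = 0.00524). COL5A2 rose from 175 ± 2.16 to 329 ± 54.3 CPM on the soft matrix, a log2 fold change of 0.91 (SE 0.253, edgeR adjusted p = 0.0335). On the stiff matrix it rose from 123 ± 8.69 to 245 ± 95 CPM, a log2 fold change of 0.99 (SE 0.254, edgeR adjusted p = 0.0254).

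These were the 2 genes called of the 6 on each matrix, against 27.4% of all tested genes on the soft and 27.6% on the stiff. At an unadjusted p of 0.05, 5 of 6 passed on the soft (41% of all tested genes) and 3 on the stiff matrix (41.4%). The libraries of the days did not overlap in 6 of 6 genes on the soft (75.3% of all tested genes) and in 3 of 6 on the stiff matrix (62.7%). On the soft matrix, COL3A1 had a log2 fold change of 1.09 (edgeR adjusted p = 0.0615), COL1A2 one of 0.55 (0.0886), COL5A3 one of 1.03 (0.173) and COL1A1 one of -0.47 (0.0988). On the stiff matrix, COL1A1 had -0.57 (edgeR adjusted p = 0.0574), COL3A1 0.57 (0.298), COL1A2 0.07 (0.840) and COL5A3 0.01 (0.992). The last 2 had values near 0 whose sign turned without scaling factors.

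Calls between days also moved with single libraries, and the share of all tested genes called in those fits is not given here. On the soft matrix, leaving out any 1 of the 4 soft libraries left 0 calls, and leaving out either stiff library of day 2 left COL5A1 alone. Leaving out replicate 1 or 2 of the stiff matrix at day 4 gave 5 and 4 calls. On the stiff matrix, COL5A1 alone was called without either soft library of day 2 and without replicate 1 of the stiff matrix at day 2, and 0 genes without replicate 2 of the latter. Without replicate 1 or 2 of the stiff matrix at day 4 there were 3 and 4 calls. Across these fits the log2 fold change of COL5A1 stayed between -1.14 and -0.88 on the soft and between -1.78 and -1.11 on the stiff matrix, and that of COL5A2 between 0.73 and 1.04 and between 0.52 and 1.33.

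Ratios of FPKM within a library do not depend on the scaling between libraries. COL5A1/COL5A2 was 1.77 and 1.69 on the soft and 2.43 and 2.32 on the stiff matrix at day 2, and 0.476 and 0.459 on the soft and 0.436 and 0.482 on the stiff matrix at day 4. All 4 libraries of day 4 were below all 4 of day 2, 4.38-fold lower on average. The exact two-sided permutation test of 4 against 4 gave p = 0.0286, the smallest it allows, and 0.0762 after adjustment over the 8 ratio tests, which were chosen with the values known. Within the soft matrix the log2 difference was -1.89 and within the stiff matrix -2.37.

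COL1A1/COL1A2 was also without overlap between days, with a log2 difference of -0.84 (exact permutation p = 0.0286, adjusted 0.0762), -1.03 within the soft and -0.64 within the stiff matrix. Between matrices, COL3A1/COL5A2 was without overlap. It was 0.116 ± 0.00619 on the soft and 0.0785 ± 0.0305 on the stiff matrix at day 2, and 0.131 ± 0.0139 and 0.0589 ± 0.00219 at day 4 (SD, n = 2 each). The log2 difference was -0.89 (exact permutation p = 0.0286, adjusted 0.0762). COL1A1/COL3A1 was 54.4 ± 1.96 on the soft and 115 ± 46.7 on the stiff matrix at day 2, and 18.8 ± 2.38 and 49.8 ± 11.4 at day 4, and it lay higher in the stiff than in the soft libraries at each day without overlap, by 1.01 at day 2 and 1.39 at day 4 on the log2 scale. Pooled over days, which the 4 against 4 test does not take into account, its libraries overlapped (exact permutation p = 0.114, adjusted 0.183). COL5A1/COL5A2 was higher in both stiff than in both soft libraries at day 2, by 0.46 on the log2 scale, and overlapped between matrices at day 4, with a difference of -0.03. Pooled over days in the same way, the difference was 0.21 (exact permutation p = 0.6, adjusted 0.686).

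**Figure D4:**
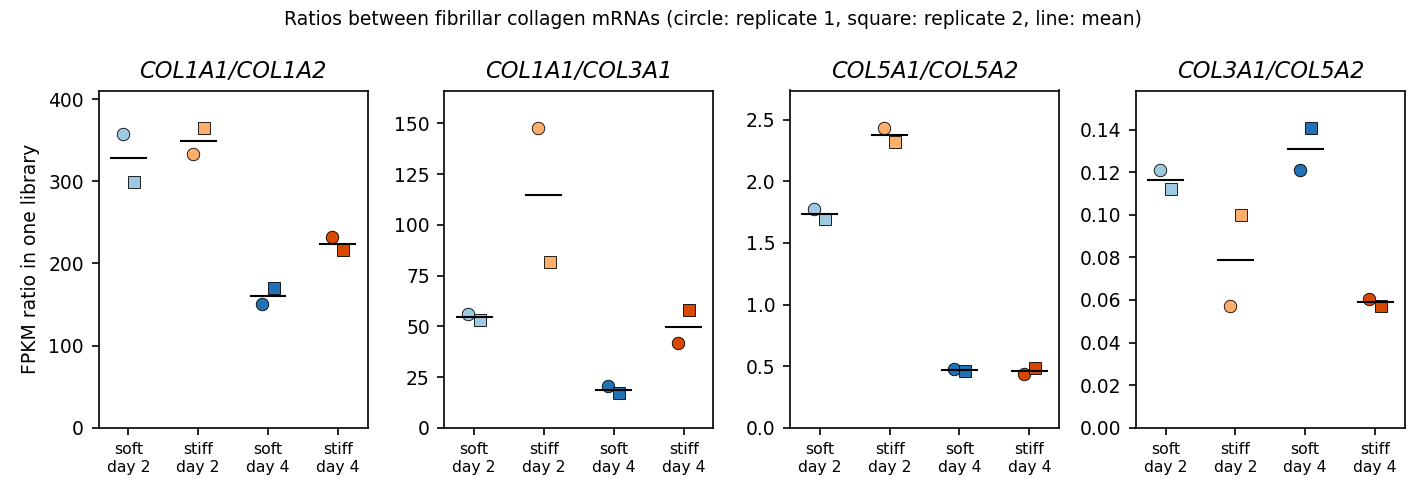
FPKM ratios (y axis, linear) of 4 gene pairs in each library, by condition, with a bar at the mean of 2. COL5A1/COL5A2 lies between 1.69 and 2.43 at day 2 and between 0.436 and 0.482 at day 4, and COL3A1/COL5A2 is lower in each stiff library than in each soft one.

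Likeness between genes was measured as the root mean square difference of log2 CPM, each gene centered on its own mean, over the 8 libraries, among 12164 other genes with a mean log2 CPM of at least 1. The measure is a description, since all genes share the libraries. Nearest to COL1A1 were CAPN5 (0.03), DENND3 (0.03) and PLXNB2 (0.04). Nearest to COL3A1 were BIRC3 (0.20), RAB27B (0.22) and ICAM1 (0.29), beside a median of 0.92 over all genes. COL5A2, its neighbor on the chromosome, was the 47th nearest to COL3A1 (0.51) and COL1A2 the 141st (0.61). Taken from the other side, COL3A1 ranked only 3764 in likeness to COL5A2 and 10162 in likeness to COL1A2.

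Nearest to COL5A1 were HELZ2, ANGPTL2 and MINK1 (0.07 to 0.08, median of all genes 0.71), and to COL5A2 GULP1, MYLIP and CARD6 (0.13 to 0.14, median 0.61). COL5A2 ranked 11291 in likeness to COL5A1 (1.08), its usual partner chain. Nearest to COL1A2 were PDK1, SLC44A1 and RHBDL2 (0.06 to 0.09, median 0.42), and COL1A1 ranked 7176 (0.45). Nearest to COL5A3 were P4HA1, PLSCR1 and SOX4 (0.21 to 0.23, median 0.58), on few counts.

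Of 4 other fibrillar chains, COL11A2 and COL27A1 could be tested, and COL2A1 (3 to 15 counts) and COL24A1 (0 to 3 counts) could not. COL27A1 fell with time on the soft (log2 fold change -1.46, edgeR adjusted p = 0.00562) and on the stiff matrix (-1.57, edgeR adjusted p = 0.00521). COL11A2, a further type XI chain, fell on the soft (-1.21, edgeR adjusted p = 0.0145) and on the stiff matrix (-1.26, edgeR adjusted p = 0.0147). Neither passed between matrices, with -0.26 and -0.38 for COL27A1 at days 2 and 4 and -0.23 and -0.27 for COL11A2.

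These other chains and the genes that act on fibrillar collagens were counted in 7 lists with 90 tested genes. Between matrices at day 2, 0 of the 90 passed in edgeR, 8 had an unadjusted p under 0.05, and DESeq2 called 2. Over all tested genes, edgeR called 0% and 2.82% had an unadjusted p under 0.05. At day 4, 2 passed in edgeR, against 0.247% of all tested genes, both of 9 tested collagen-degrading proteases, and DESeq2 called 5. An unadjusted p under 0.05 was reached by 20 of the 90 at day 4, against 6.93% of all tested genes. The gelatinase MMP2 had a log2 fold change of -2.50 and the gelatinase MMP9 one of -3.13 (edgeR adjusted p = 0.0151 each). Over both days these 2 genes passed in edgeR, against 0.426% of all tested genes, and DESeq2 called 7 of the 90. An unadjusted p under 0.05 was reached by 18 of the 90 over both days, against 7.7% of all tested genes. For the interaction, 0 of the 90 passed by edgeR or DESeq2, against 0% of all tested genes in edgeR, and 6 had an unadjusted p under 0.05, against 1.95%. Between matrices at day 4, MMP1, the interstitial collagenase, had a log2 fold change of 0.70 (edgeR adjusted p = 0.460). Leaving out any 1 of the 4 soft libraries left 0 of the 90 genes called at day 4, as did a fit of the day 4 libraries alone, and leaving out replicate 1 or 2 of the stiff matrix at day 4 gave 44 and 11. At day 2, there were 4 calls when either of these stiff libraries was left out and 16 when the day 2 libraries were fitted by themselves. Over both days, the 2 calls became 0 without either soft library of day 2, 1 without replicate 2 of the soft matrix at day 4 or replicate 1 of the stiff matrix at day 2, and 35 and 16 without replicate 1 or 2 of the stiff matrix at day 4. For the interaction, 24 genes were called without replicate 1 of the stiff matrix at day 4.

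In the other lists edgeR called 0 genes between matrices at day 4, and DESeq2 called 1 gene each in the folding, receptor and TGF-beta lists. Of 12 genes for propeptide removal and crosslinking, LOX, a lysyl oxidase that crosslinks fibrils, had a log2 fold change of 0.62 (edgeR adjusted p = 0.360), and BMP1, which cuts the C-propeptide, had -0.53 (0.461). Of 25 genes for procollagen folding, modification and export, P4HA1, a subunit of prolyl 4-hydroxylase, had -0.79 (edgeR adjusted p = 0.159) and COLGALT2 had 0.74 (0.418). Of 10 fibril-associated genes, TNXB had -1.0 (edgeR adjusted p = 0.348). Of 9 collagen receptors, ITGA2, a collagen-binding integrin subunit, had -1.52 (edgeR adjusted p = 0.110). Of 23 genes of the TGF-beta pathway and collagen transcription factors, CTGF had 0.88 (edgeR adjusted p = 0.0945), TGFB2 0.58 (0.470), SMAD7, an inhibitor of the pathway, -0.51 (0.353) and SKIL -0.60 (0.400).

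Between days, 16 of the 90 genes were higher and 12 lower at day 4 on the soft matrix, and 9 were higher and 17 lower on the stiff, against 27.4% and 27.6% of all tested genes called in either direction. On the soft matrix the split was 10 higher and 13 lower without scaling factors. In propeptide removal and crosslinking, 2 of 12 rose and 2 fell on each matrix. TLL1, a relative of BMP1, rose by 2.44 on the soft and 2.54 on the stiff matrix (log2, edgeR adjusted p = 0.00181 and 0.00178), and LOX rose by 0.58 and 0.78 (0.0387 and 0.0145). ADAMTS2 and ADAMTS14, which remove N-propeptides, fell on the soft matrix by 1.12 and 1.54 (edgeR adjusted p = 0.0270 and 0.0133) and on the stiff by 0.99 and 1.63 (0.0462 and 0.0163).

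In folding, modification and export, 4 of 25 rose and 3 fell on the soft matrix, and 1 rose and 4 fell on the stiff. The lysyl hydroxylase PLOD3 fell on both (-0.64 and -0.70), as did PLOD1 (-0.43 and -0.41) and P4HA2 (-0.43 and -0.63). CREB3L1 fell on the stiff matrix (-0.79). TMEM38B rose on both (0.87 and 0.59), and PLOD2 (0.86, edgeR adjusted p = 0.0244), P4HA1 (0.82) and FKBP14 (0.63) rose on the soft matrix. Of 10 fibril-associated genes, SPARC, a collagen-binding matricellular protein, rose on the soft (0.68) and on the stiff matrix (0.73), and TNXB fell (-0.89 and -1.51). On the soft matrix THBS1 also rose and COL16A1 fell, so that 2 rose and 2 fell there and 1 each on the stiff. Of 9 receptors, 0 passed on the soft matrix in edgeR, with 0 at an unadjusted p under 0.05, and 3 fell on the stiff, which were ITGA2 (-1.26), ITGA10 (-1.66) and the collagen receptor kinase DDR1 (-0.68).

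Of 9 proteases, MMP1 fell on the soft matrix (-1.76, edgeR adjusted p = 0.00275), and MMP1 (-1.26), MMP2 (-1.57) and MMP14 (-0.43) fell on the stiff. Of 23 TGF-beta and transcription factor genes, 8 rose and 2 fell on the soft matrix, and 5 rose and 2 fell on the stiff. As above, 27.4% and 27.6% of all tested genes were called on the soft and the stiff matrix. TGFB2, a ligand, rose by 1.86 and 2.23 (edgeR adjusted p = 0.00164 and 0.00129), and TGFBR1, a receptor, by 1.01 and 0.65. CTGF (0.60 and 1.13), SMAD4 (0.48 and 0.43) and NFYB (0.75 and 0.88) also rose on both matrices. SKIL (0.56, edgeR adjusted p = 0.0448), SMAD2 (0.57) and SP3 (0.89) were called higher on the soft matrix only. SMAD7 fell by 0.59 and 1.52, and CEBPB by 1.27 and 1.04.

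The counts of called pathway genes between days ranged widely with single libraries. On the soft matrix, 28 became 3 and 10 without replicate 1 or 2 of the soft matrix at day 2, 7 and 9 without replicate 1 or 2 of the soft matrix at day 4, 18 without either stiff library of day 2, and 50 and 49 without replicate 1 or 2 of the stiff matrix at day 4. On the stiff matrix, 26 became 8 and 3 without replicate 1 or 2 of the stiff matrix at day 2, and 50 and 47 without replicate 1 or 2 of the stiff matrix at day 4, and lay at 21 or 22 without any 1 soft library. A fit of the compared libraries alone called 45 on the soft and 0 on the stiff matrix.

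**Figure D5:**
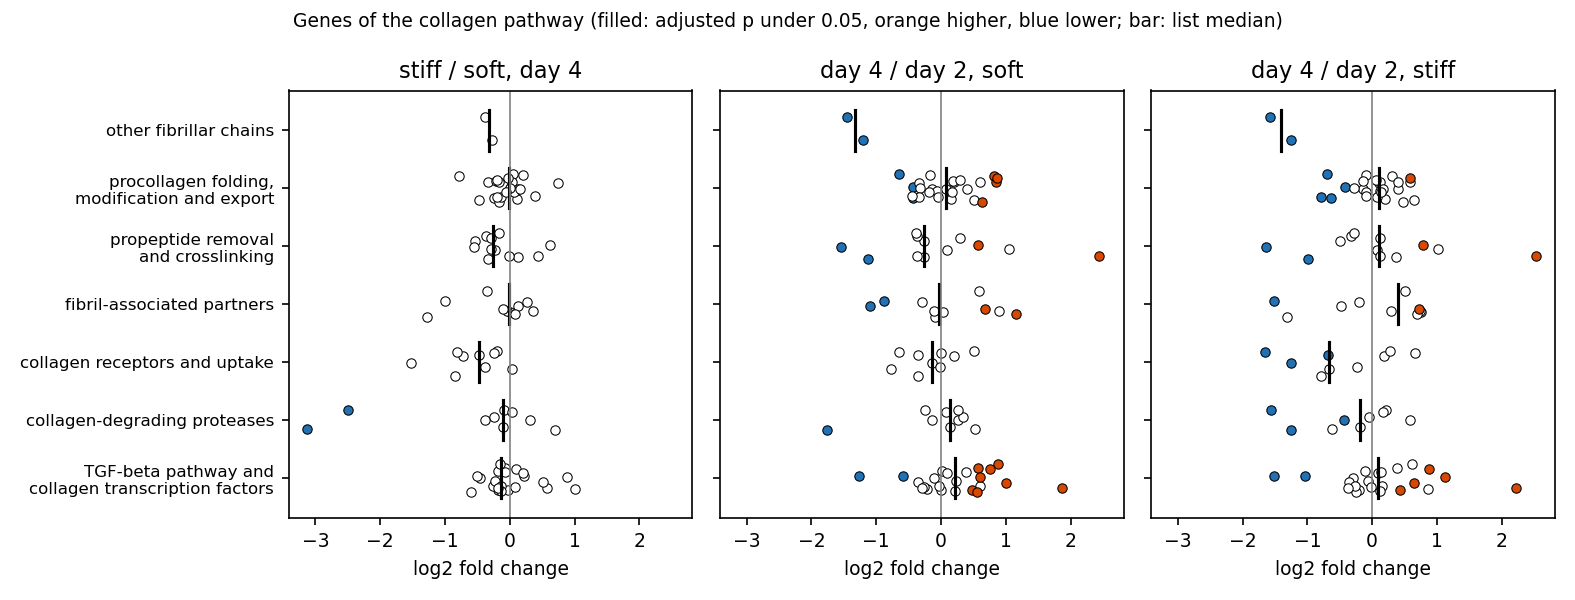
Log2 fold changes (x axis) of the 90 tested genes in 7 lists of the collagen pathway (y axis) for 3 comparisons, with a bar at each list's median. Orange points were higher and blue points lower at an adjusted p of 0.05, and the only filled points between matrices at day 4 are MMP2 at -2.50 and MMP9 at -3.13.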

How the data were processed

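RNA-seq was measured in 8 LX-2 libraries. Per the labels and the study's methods, the authors trimmed reads with Trim Galore, mapped them to hg19 with STAR (2.7.1a) and made the deposited counts per gene, which are not normalized, with htseq-count. The gene annotation and strand setting were not given in the sources used here. The authors also deposited FPKM, which were checked to be scaled by median-of-ratios size factors. Gene coordinates and strand overlaps come from GENCODE v44lift37 on GRCh37.

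The counts were tested with edgeR 4.0.16 in R 4.3.3, using filterByExpr by condition, TMM factors and 1 quasi-likelihood fit of 4 conditions over 8 libraries, with a common dispersion of 0.0281. A gene was called where its p, adjusted by Benjamini-Hochberg, was under 0.05. Log2 CPM used a prior count of 2. SEs were derived from the F statistic. The code was tested on simulated data. FPKM ratios were compared by exact two-sided permutation tests.

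Genes named are all 7 collagens, and from each list the 2 with the smallest p per direction in a comparison plus called ones, of which a selection is given. The genes, lists and ratios were chosen with earlier results of these data known. The labels number 2 libraries per condition, which the study's text describes as separate experiments, and p-values measure the spread between these libraries. Same-numbered libraries were not treated as pairs. With 2 libraries per condition and 19955975 to 27263935 counts each, precision is limited.

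Alternatives were DESeq2 1.42.0, RLE or no scaling factors, other count filters (none, or at least 10 counts in every library), the compared libraries alone, the replicate number as a block, limma 3.58.1 on log2(FPKM + 1) or log2(FPKM + 0.1) for genes that reached 1 FPKM in 2 or more libraries and on log2(FPKM + 1) for all genes, and leaving out each library. RefSeq GRCh38.p14 gave the promoters.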

Additional observations from a re-analysis of the deposited data

How the results depend on the processing

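With 2 libraries per condition, calls depended on which libraries were in the fit. Of 639 log2 fold changes of the 6 tested genes under alternatives, 563 kept their direction and side of the threshold, 38 gained a call, 23 lost one and 15 changed sign. The number of collagen genes called between matrices went from 0 to 2 at day 2 with the compared libraries alone, and from 0 to 1 at day 4 and over both days under DESeq2. Between days on the soft matrix, 2 calls became 1 with limma on log2(FPKM + 1) and no filter or without scaling factors, and 4 with the compared libraries alone. On the stiff matrix they became 1 with limma and no filter and 0 with the compared libraries alone. DESeq2 called 3 on each matrix. The causes were not tested. Leaving out 1 library gave 0 to 2 calls at day 2, 0 to 5 at day 4, 0 to 4 over both days, 0 to 2 for the interaction, and 0 to 5 and 0 to 4 between days on the soft and the stiff matrix. An arm left with 1 library was assumed to vary like the others, and the share of all tested genes called in such fits is not given here.

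With the replicate number as a block, 1 gene was called between days on each matrix in place of 2, COL5A1 in both, and 0 between matrices as before. The correlation of same-numbered deviations was -0.04 at day 2, -0.49 at day 4, and 0.08 and 0.02 between days on the soft and the stiff matrix. At day 4, replicate 1 of either matrix thus tended to deviate like replicate 2 of the other, and the cause was not tested. The pairing crossed on the stiff matrix at day 4, added after seeing the data, gave 1 call between matrices at day 4 and 1 over both days.

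Sign changes of the log2 fold changes concerned values near 0 or few counts, except for COL3A1 in the interaction, which was -0.52 with all libraries. Between days on the stiff matrix, COL1A2 had -0.053 without scaling factors, and COL5A3 had -0.0050 with DESeq2, -0.00057 with limma and no filter, -0.011 with no low-count filter and -0.11 without scaling factors. Leaving out 1 library moved these from -0.10 to 0.21 and from -0.27 to 0.21. It moved COL5A3 between matrices at day 2 from -0.76 to 0.25. For the interaction it moved COL1A1 from -0.31 to 0.11, COL3A1 from -1.02 to 0.033 and COL5A2 from -0.37 to 0.45. For the log2 ratios, COL3A1/COL5A2 between days was 0.17 on the soft matrix alone and -0.34 to 0.11 without 1 library, and COL5A1/COL5A2 between matrices was -0.027 at day 4 alone and -0.19 to 0.63 without 1 library. Without scaling factors the median of all genes between matrices was -0.06 at day 2 and -0.09 at day 4, and all 6 genes stayed below 0.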

Other observations

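The 9 tested collagen receptor and uptake genes all had log2 fold changes below 0 on the stiff against the soft matrix averaged over both days, as did 45.3% of all tested genes, with a median of -0.32 beside 0.02 over all tested genes. By day, 7 of these 9 genes were below 0 at day 2 and 8 at day 4, against 48.3% and 46.6% of all tested genes. In propeptide removal and crosslinking, 10 of 12 genes were below 0 over both days, with a median of -0.24. The lysyl oxidase LOX, which had the smallest p of this list, was above 0 (0.52, edgeR adjusted p = 0.193), as was TLL1 (0.38, 0.721). Of these 12 genes, 0 passed an adjusted p of 0.05 in edgeR, and 2 had an unadjusted p under 0.05, against 0.426% and 7.7% of all tested genes. Of the 9 receptor and uptake genes, 0 passed an adjusted p of 0.05 in edgeR over both days, against 0.426% of all tested genes. At an unadjusted p of 0.05, 4 of the 9 passed, against 7.7%, while DESeq2 called 1. ITGA2 and ITGA1, which encode collagen-binding integrin subunits, had -0.97 (edgeR adjusted p = 0.120) and -0.72 (0.368). COL3A1 had -1.32 in the same comparison, without a call in edgeR (adjusted p = 0.131) and with one in DESeq2 (adjusted p = 0.000264).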
